A study of Homo sapiens with 12 samples.

Results

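DKK1 and 9 further genes of Wnt feedback and response (AXIN2, LGR5, NKD1, ZNRF3, RNF43, TCF7, LEF1, SP5 and NOTUM) were followed by gene symbol in RNA-seq counts of Huh7 cells, a human hepatocellular carcinoma line. They are 10 of the 63677 genes counted, and 9 of them were among the 17092 genes that reached 10 counts in 3 or more samples. NKD1 did not pass. There were 12 samples in 4 groups of 3. Untreated cells received medium only. The treated cells were given 400 µg/mL of GO (graphene oxide flakes), 400 µg/mL of GO-Rg3 (graphene oxide carrying the ginsenoside Rg3) or 100 µg/mL of GO-Rg3-DOX (the same carrier also loaded with doxorubicin, an anthracycline that intercalates into DNA), each for 6 h. The GO-Rg3-DOX and GO-Rg3 groups therefore differ in the dose of carrier and in doxorubicin, whose effects cannot be told apart here, and doxorubicin without carrier was not analysed here. DKK1 was picked because its level after GO was known to be low, so the values of these genes in comparisons that use the GO samples are given as a description with no test.

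In canonical Wnt signalling, secreted Wnt proteins bind Frizzled receptors and the co-receptors LRP5 and LRP6, which stops a destruction complex of AXIN, APC and GSK3 from marking β-catenin for degradation. β-catenin then enters the nucleus and switches on target genes together with TCF/LEF proteins. Several of these targets act back on the pathway. DKK1 blocks LRP5 and LRP6, NOTUM removes the lipid that Wnt proteins need for binding, ZNRF3 and RNF43 are ubiquitin ligases that clear Frizzled from the cell surface, and AXIN2 and NKD1 act inside the cell. In the liver the pathway sets the gene expression of hepatocytes around the central vein, and it is often activated in hepatocellular carcinoma.

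RefSeq promoter windows (GRCh38.p14) were at hand for 5 of the 10 genes, DKK1, SP5, RNF43, TCF7 and LEF1, with 7 start sites in all. AXIN2, LGR5, NKD1, ZNRF3 and NOTUM had no entry. The 250 bases before each start were searched on both strands for the 7-letter TCF/LEF motif CTTTG followed by AA, AT, TA or TT, and no matches found overlapped. DKK1 (chr10:52314031-52314280, plus strand) held 2 matches, beginning 95 and 76 bases before the start. SP5 (chr2:170715087-170715336, plus strand) held 3, the first beginning 148 and the last 84 bases before it. The first start of RNF43 (chr17:58417535-58417784, minus strand) held 0. These 3 windows are shown because the 3 genes had lower RNA after GO-Rg3-DOX while their promoters differ in the number of matches. Capitals mark the motif letters, on whichever strand they lie, and each window runs 5′ to 3′ towards the start.
DKK1: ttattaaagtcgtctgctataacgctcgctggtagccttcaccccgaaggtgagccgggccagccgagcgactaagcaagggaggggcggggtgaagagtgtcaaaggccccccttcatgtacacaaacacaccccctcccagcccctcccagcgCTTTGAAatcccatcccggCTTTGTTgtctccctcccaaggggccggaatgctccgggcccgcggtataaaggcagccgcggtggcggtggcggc
SP5: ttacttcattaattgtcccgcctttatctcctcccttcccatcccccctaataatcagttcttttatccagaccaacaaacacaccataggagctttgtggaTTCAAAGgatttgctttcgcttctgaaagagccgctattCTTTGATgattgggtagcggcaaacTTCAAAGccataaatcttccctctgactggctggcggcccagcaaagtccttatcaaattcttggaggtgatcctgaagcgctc
RNF43: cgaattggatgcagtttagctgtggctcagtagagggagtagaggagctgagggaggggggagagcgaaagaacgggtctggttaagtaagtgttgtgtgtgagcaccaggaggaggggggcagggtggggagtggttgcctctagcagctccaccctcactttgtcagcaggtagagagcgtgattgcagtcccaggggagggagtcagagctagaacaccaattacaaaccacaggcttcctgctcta
The second start of RNF43 and the start of LEF1 held 0 matches, and TCF7 held 0 at its first start and 1 at its second, 50 bases before it. Of all 35116 promoter windows of the same length, 11.96% held at least 1 match, 1.21% at least 2 and 0.122% at least 3. A match of letters is a description and does not show that a factor binds there.

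Libraries held 27802871 to 38877420 counts (median 33224427). The 8 hepatocyte markers checked (ALB, AFP, APOA1, APOB, TTR, SERPINA1, HNF4A and TF) lay between 158 and 16544 CPM in every sample, whereas the 4 markers of leukocytes, endothelium and fibroblasts lay between 0 and 0.791 CPM. CPM are read counts scaled to a common library size, here by TMM, a method that takes most genes as unchanged. Mitochondrial transcripts made up 5.31 to 6.28% of counts in untreated cells, 6.89 to 7.42% after GO-Rg3, 12.8 to 19.4% after GO-Rg3-DOX and 12.1 to 24.1% after GO. The highest share in each of the last pair of groups was in replicate 1.

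Of the secreted antagonists, DKK1 (ENSG00000107984, GRCh37 chr10:54074041-54077802, plus strand) separated all 4 groups. Its level was 90.2, 90.2 and 92.6 CPM in untreated cells, from 3409, 2821 and 3930 counts. In GO-treated cells it was 2.90, 3.37 and 3.42 CPM, from 74 counts in the lowest library. GO-Rg3 gave 34.7, 46.2 and 42.6 CPM, and GO-Rg3-DOX gave 11.99, 15.7 and 15.2 CPM. The order was therefore untreated, GO-Rg3, GO-Rg3-DOX and GO, and no sample of a group reached the range of its neighbour. In bulk RNA, fewer cells expressing a gene and less RNA per cell cannot be told apart.

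Untreated cells had a DKK1 mean of 91.0 ± 1.37 CPM (SD, n = 3) and 3.23 ± 0.289 CPM with GO (SD, n = 3), 27.99-fold lower by edgeR (log2 fold change -4.81, standard error 0.15). This place, 4 of the 448 genes called lower after GO, is what the choice of DKK1 rests on. A gene was called when its adjusted p was below 0.01 and its absolute log2 fold change above 1. At the same dose of carrier with Rg3, DKK1 was 41.2 ± 5.89 CPM, 12.7-fold higher than after GO (log2 fold change 3.66, standard error 0.14). The authors reported that flakes loaded with Rg3 were also larger, thicker and less negatively charged. The parts of Rg3 and of these flake properties cannot be told apart here.

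GO-Rg3 left DKK1 under-expressed relative to untreated cells. The level fell 2.21-fold, a log2 fold change of -1.14 (standard error 0.12, 95% interval -1.40 to -0.89, edgeR adjusted p = 0.00095). It was the 5th by size of the 8 genes called lower in this comparison, which shares its untreated samples with the comparison that DKK1 was chosen from. The call rested on untreated replicate 3, without which the log2 fold change was -1.13 (edgeR adjusted p = 0.012).

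GO-Rg3-DOX lowered DKK1 to 14.3 ± 2.03 CPM (SD, n = 3). Relative to untreated cells the level fell 6.35-fold, a log2 fold change of -2.67 (standard error 0.13, edgeR adjusted p = 3.5e-10), place 239 of 3103 genes called lower. This comparison also uses the untreated samples that DKK1 was chosen from, so its p is not independent of the choice. Relative to GO-Rg3, a comparison with no sample in common with GO or untreated cells, it fell 2.87-fold (log2 fold change -1.52, standard error 0.13, edgeR adjusted p = 6.9e-08), place 1594 of 3097. After GO-Rg3-DOX the mean stood above that after GO, and every GO-Rg3-DOX sample lay above every GO sample, at a dose of 100 against 400 µg/mL.

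NOTUM (ENSG00000185269, GRCh37 chr17:79910383-79919716, minus strand) was counted only a few times in each library. Its counts were 6, 5 and 5 in untreated cells, 4, 11 and 4 after GO, 9, 2 and 10 after GO-Rg3 and 14, 10 and 8 after GO-Rg3-DOX. All 3 GO-Rg3-DOX samples, at 0.577, 0.359 and 0.305 CPM, lay above the untreated samples, at 0.118 to 0.160 CPM. The log2 fold change of 1.49 (standard error 0.49, edgeR adjusted p = 0.014) did not pass the threshold, nor did that against GO-Rg3 (1.06, standard error 0.46, edgeR adjusted p = 0.055). With an offset for GC content these values were 0.73 and 0.48.

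**Figure D1:**
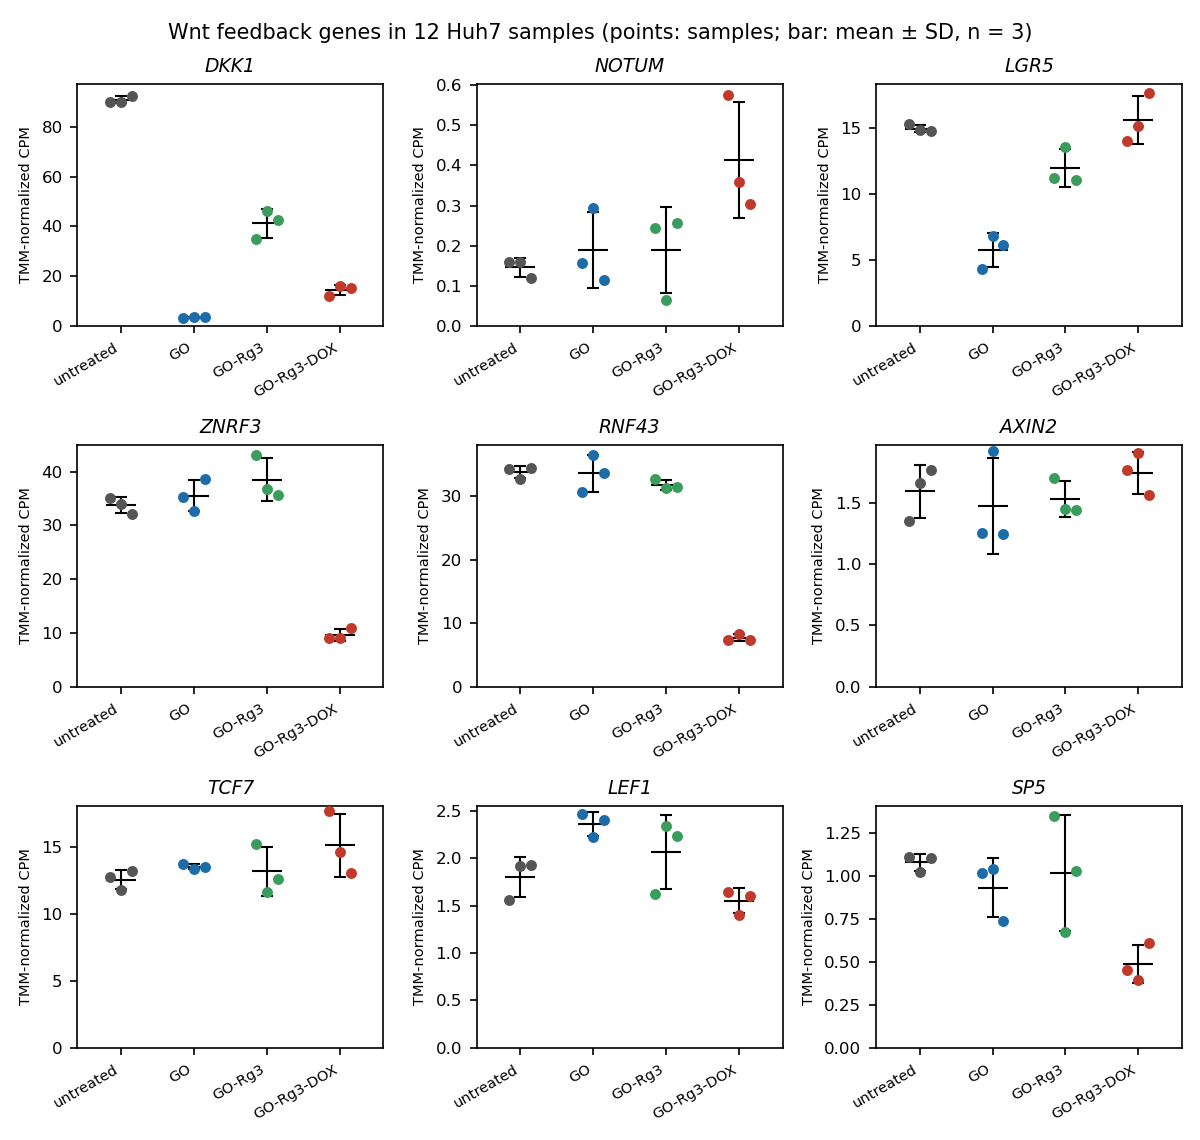
TMM-normalized CPM (linear axis from 0, a scale for each gene) of the 9 tested genes in each of the 12 samples. Points are samples, and bars give the mean ± SD (n = 3). DKK1 differs between all groups, with means from 3.23 CPM (GO) to 91.0 CPM (untreated), LGR5 is lowest after GO, and ZNRF3 and RNF43 stay above 30 CPM in all groups but GO-Rg3-DOX.

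LGR5 (ENSG00000139292, GRCh37 chr12:71833578-71980090, plus strand), a receptor for R-spondins that marks Wnt-responsive stem cells, was low after GO and not after GO-Rg3-DOX. Untreated samples held 15.3, 14.8 and 14.8 CPM and GO samples 4.31, 6.79 and 6.14 CPM. GO-Rg3 samples held 11.2, 13.6 and 11.04 CPM, and GO-Rg3-DOX samples 14.01, 15.2 and 17.7 CPM. The GO samples stood below all others, the GO-Rg3 samples came next without overlap, and the untreated and GO-Rg3-DOX samples overlapped.

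After GO, LGR5 was 2.58-fold lower than in untreated cells (log2 fold change -1.37, standard error 0.15), and after GO-Rg3 2.06-fold higher than after GO (1.04, standard error 0.15). Without GO replicate 1, the library with the highest mitochondrial share, that value was 0.88, below the fold threshold. Leaving out 1 replicate at a time gave 0.88 to 1.18 for LGR5 with GO-Rg3 against GO. The change with GO-Rg3 against untreated cells was -0.33 (standard error 0.15, 95% interval -0.64 to -0.01, edgeR adjusted p = 0.35). With GO-Rg3-DOX against untreated cells it was 0.06 (95% interval -0.25 to 0.37, edgeR adjusted p = 0.73), and against GO-Rg3 0.39 (standard error 0.15, edgeR adjusted p = 0.03), which misses the threshold. With library totals in place of TMM the last 2 values were -0.35 and -0.05. LGR5 lies over TSPAN8 on the opposite strand, a gene with up to 7821 counts but with 0 exon bases in common. LGR4, a related R-spondin receptor, fell after GO-Rg3-DOX from 186 ± 6.30 to 56.1 ± 3.39 CPM (log2 fold change -1.73, edgeR adjusted p = 4.5e-08), and after GO it was at 124, 196 and 182 CPM (-0.15, edgeR adjusted p = 0.38).

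The ubiquitin ligases ZNRF3 and RNF43 were under-expressed with GO-Rg3-DOX and lay near their untreated level with GO and GO-Rg3. RNF43 (ENSG00000108375, GRCh37 chr17:56431037-56494956, minus strand) lay at 34.2, 32.7 and 34.4 CPM without treatment, 30.6, 36.5 and 33.7 CPM after GO and 32.7, 31.3 and 31.4 CPM after GO-Rg3. After GO-Rg3-DOX it lay at 7.37, 8.34 and 7.36 CPM. ZNRF3 (ENSG00000183579, GRCh37 chr22:29279560-29453476, plus strand) lay at 35.1, 34.01 and 32.1 CPM without treatment, 35.3, 32.7 and 38.6 CPM after GO and 43.1, 36.8 and 35.6 CPM after GO-Rg3. After GO-Rg3-DOX it lay at 8.94, 9.02 and 10.8 CPM. For both genes the GO-Rg3-DOX samples stood far below all 9 others, among which GO overlapped with untreated cells.

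RNF43 fell 4.39-fold with GO-Rg3-DOX against untreated cells (log2 fold change -2.13, standard error 0.10, edgeR adjusted p = 3.5e-10) and 4.13-fold against GO-Rg3 (-2.05, standard error 0.10, edgeR adjusted p = 5e-10). ZNRF3 fell 3.52-fold against untreated cells (-1.81, standard error 0.12, edgeR adjusted p = 5.1e-09) and 4.01-fold against GO-Rg3 (-2.004, standard error 0.12, edgeR adjusted p = 2e-09). In the GO-Rg3 against untreated comparison the changes were -0.09 for RNF43 (95% interval -0.29 to 0.12, edgeR adjusted p = 0.76) and 0.19 for ZNRF3 (95% interval -0.04 to 0.42, edgeR adjusted p = 0.5). After GO they were -0.01 for RNF43 and 0.07 for ZNRF3, as a description.

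AXIN2 (ENSG00000168646, GRCh37 chr17:63524681-63557766, minus strand), the scaffold of the destruction complex that Wnt signalling itself induces, was low and did not pass the threshold in any tested comparison. It lay at 1.35, 1.66 and 1.77 CPM without treatment, 1.25, 1.93 and 1.25 CPM after GO, 1.70, 1.45 and 1.44 CPM after GO-Rg3 and 1.77, 1.90 and 1.56 CPM after GO-Rg3-DOX, and the groups overlapped throughout. Its log2 fold change was 0.13 with GO-Rg3-DOX against untreated cells (standard error 0.21, 95% interval -0.31 to 0.57, edgeR adjusted p = 0.59) and -0.06 with GO-Rg3 (95% interval -0.49 to 0.37, edgeR adjusted p = 0.94). NKD1 (ENSG00000140807, GRCh37 chr16:50582307-50683160, plus strand), a cytoplasmic inhibitor that binds Dishevelled, had 0 to 2 counts per library, 5 in total, and 0 in 8 of the 12 libraries. A count of 0 allows up to 3 counts, which is 0.0706 to 0.124 CPM in these libraries and covers counting error only, so no fold is given.

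Of the nuclear members, SP5 (ENSG00000204335, GRCh37 chr2:171571847-171574588, plus strand), a zinc finger factor of the Sp family, had counts of 42, 32 and 47 in untreated cells, 26, 39 and 26 after GO, 50, 21 and 40 after GO-Rg3 and 11, 11 and 16 after GO-Rg3-DOX. As levels these were 1.11, 1.02 and 1.11 CPM, 1.02, 1.04 and 0.736 CPM, 1.35, 0.675 and 1.03 CPM, and 0.453, 0.395 and 0.610 CPM. The GO-Rg3-DOX samples lay below all others, and the rest overlapped. SP5 fell 2.22-fold against untreated cells (log2 fold change -1.15, standard error 0.29, edgeR adjusted p = 0.0029) and 2.11-fold against GO-Rg3 (-1.08, standard error 0.30, edgeR adjusted p = 0.0048). Both calls were lost without GO-Rg3-DOX replicate 1 (-1.09 and -1.02, edgeR adjusted p = 0.013 and 0.019) or replicate 2 (-0.99 and -0.92, edgeR adjusted p = 0.02 and 0.029). The second call was also lost without GO-Rg3 replicate 1 (-0.83, edgeR adjusted p = 0.028) or replicate 3 (-1.08, edgeR adjusted p = 0.013).

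TCF7 (ENSG00000081059, GRCh37 chr5:133450372-133487556, plus strand) and LEF1 (ENSG00000138795, GRCh37 chr4:108968701-109090112, minus strand) are partners of β-catenin on DNA. TCF7 lay at 12.8, 11.8 and 13.2 CPM without treatment, 13.7, 13.3 and 13.5 CPM after GO, 15.2, 11.7 and 12.6 CPM after GO-Rg3 and 17.7, 14.6 and 13.04 CPM after GO-Rg3-DOX. LEF1 lay at 1.56, 1.92 and 1.93 CPM without treatment, 2.47, 2.22 and 2.41 CPM after GO, 1.62, 2.35 and 2.24 CPM after GO-Rg3 and 1.65, 1.40 and 1.60 CPM after GO-Rg3-DOX. All GO samples lay above the untreated ones for both genes, by log2 fold changes of 0.10 for TCF7 (-0.017 with library totals) and 0.39 for LEF1. With GO-Rg3-DOX against untreated cells TCF7 differed by 0.27 (95% interval -0.01 to 0.54, edgeR adjusted p = 0.085, and -0.16 with library totals) and LEF1 by -0.22 (95% interval -0.62 to 0.18, edgeR adjusted p = 0.32), and the groups overlapped. TCF7 values are uncertain, since 210 of its exon bases are shared with SKP1 on the opposite strand, which had up to 4731 counts, and the strand setting of the counting is not given in the sources used here. DKK1 shares 227 exon bases with PRKG1-AS1, RNF43 345 with TSPOAP1-AS1 and LEF1 279 with LEF1-AS1, all on the opposite strand and with at most 9 counts in any library. AXIN2 shares 1316 of its exon bases (25.3%) with ENSG00000266076 on the same strand, a gene with 0 counts in every library. Whether reads there were left out of the AXIN2 counts was not tested.

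**Figure D2:**
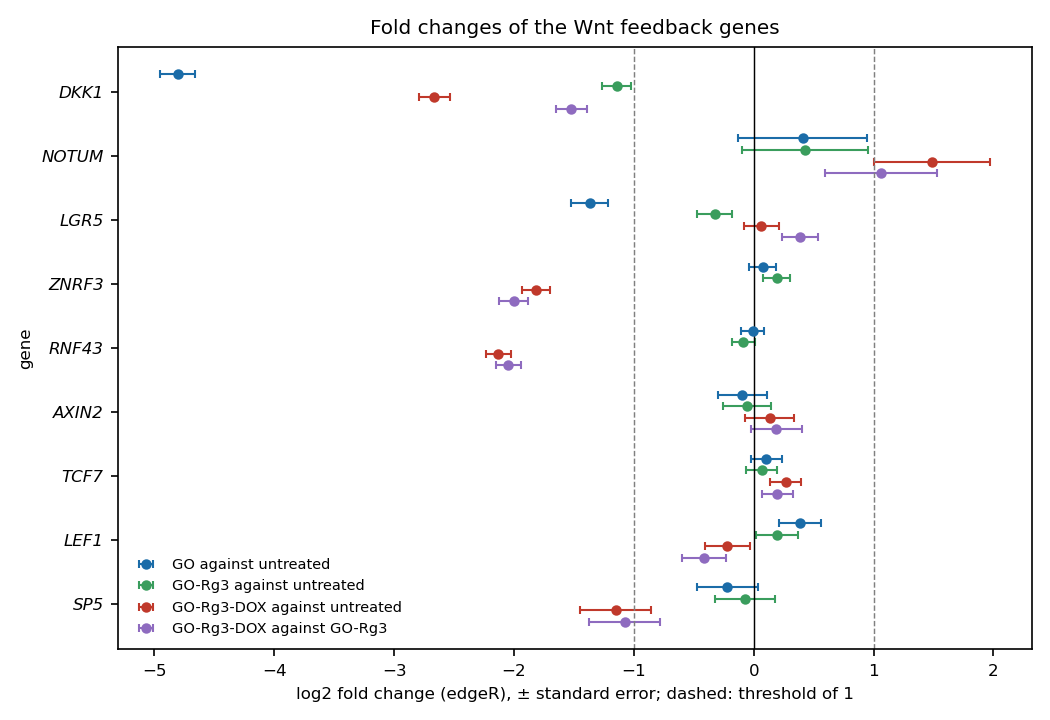
Log2 fold change by edgeR (x axis, linear, ± standard error) of the 9 tested genes in 4 comparisons. Dashed lines mark the fold threshold of 1. GO-Rg3 lies within 0.5 of 0 for all genes but DKK1 (-1.14), and GO-Rg3-DOX gives similar values against untreated cells and against GO-Rg3 for RNF43 (-2.13 and -2.05).

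Counted over the list, 2 of the 9 tested genes were lower after GO (DKK1 and LGR5) beside 2.62% of all genes, and 0 were higher beside 3.84%. With GO-Rg3 against GO 2 were higher (the same 2) beside 0.702% of all genes and 0 lower beside 2.07%. Those 4 counts include the values that chose DKK1, and they apply the call threshold as a description, not as a test. The counts against untreated cells that follow hold DKK1 too and share the untreated samples with that choice, so its place in them is given without being read against the share of all genes. With GO-Rg3 against untreated cells 1 was called lower (DKK1) beside 0.0468% of all genes and 0 higher beside 0.0117%. With GO-Rg3-DOX 4 were called lower (DKK1, ZNRF3, RNF43 and SP5) beside 18.2% of all genes and 0 higher beside 12.6%. Against GO-Rg3 the same 4 were called lower beside 18.1%, and 0 higher beside 12.6%. The median log2 fold change of the 9 genes was -0.22 with GO-Rg3-DOX against untreated cells and -0.41 against GO-Rg3, where that of all genes was -0.06 and -0.00. It was -0.06 with GO-Rg3 against untreated cells, where that of all genes was -0.00.

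Scaling moved these backgrounds. With library totals in place of TMM the median of all genes was -0.11 with GO, -0.47 with GO-Rg3-DOX against untreated cells and -0.45 against GO-Rg3. The share of called genes that were higher went from 59.5% to 40.6% for GO, from 41.03% to 17.2% for GO-Rg3-DOX against untreated cells, from 40.9% to 15.1% against GO-Rg3 and from 25.4% to 48.8% for GO-Rg3 against GO. Over all settings tried, the log2 fold change with GO-Rg3-DOX against untreated cells ranged from -3.07 to -2.43 for DKK1, from -2.55 to -2.06 for RNF43, from -2.23 to -1.74 for ZNRF3 and from -1.95 to -0.99 for SP5, whose call was lost under some of them.

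Across the 12 samples LGR5 followed DKK1 with a Pearson r of 0.77 on log2 CPM, whereas r was 0.26 for SP5, 0.16 for RNF43, 0.16 for ZNRF3, 0.14 for AXIN2, -0.25 for NOTUM, -0.36 for TCF7 and -0.37 for LEF1. These values describe 12 points that share 4 treatments. Of 13241 genes with a mean of at least 1 CPM, the 5 with the highest r to DKK1 were ELOVL6, a fatty acid elongase (0.978), CACYBP, a binding partner of SIAH1 (0.978), RPF1, a ribosome production factor (0.978), MKKS, a chaperonin-like protein (0.974), and SLC25A17, a peroxisomal carrier (0.969). They were picked by their correlation with DKK1 over these same 12 samples, so the order of groups they share with it comes with that choice. Their span was smaller than that of DKK1, which was itself chosen for its low level after GO. DKK1 was at 3.55% of its untreated mean with GO, 45.2% with GO-Rg3 and 15.7% with GO-Rg3-DOX. The 5 genes were at 47.5 to 57.5% after GO, 78.4 to 90.7% after GO-Rg3 and 62.2 to 71.2% after GO-Rg3-DOX.

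**Figure D3:**
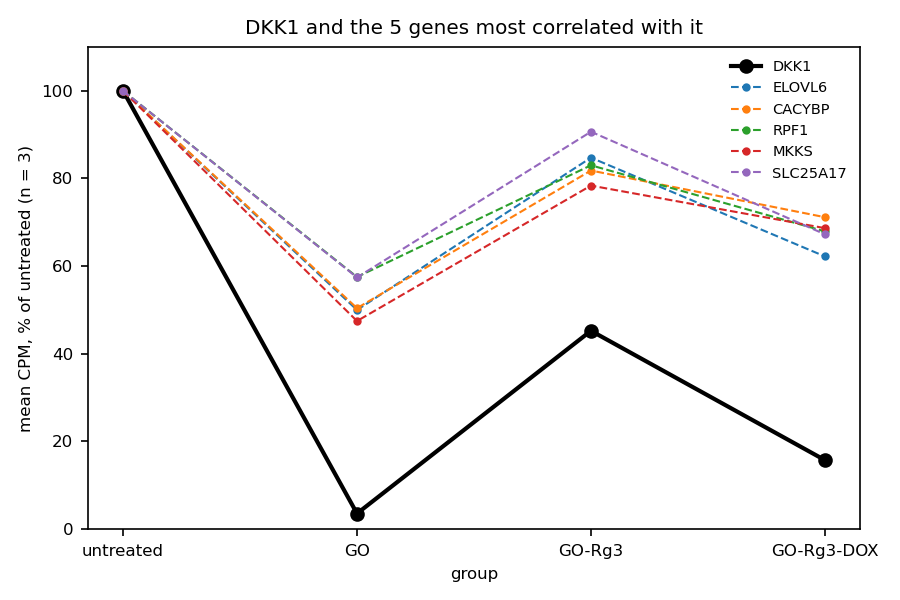
Mean CPM of DKK1 and of the 5 genes most correlated with it, as a percentage of the untreated mean (y axis, linear from 0, n = 3 per point), in the 4 groups. Lines only join the groups of a gene. All 6 genes are lowest after GO, where DKK1 is at 3.55% and the others are at 47.5% or more. The 5 genes were picked by correlation over the same samples, so the shared order comes with the choice.

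The rest of the pathway was read from 114 further genes, of which 77 were tested. After GO, 4 rose (EPHB3, TCF7L2, FRZB and TCF7L1) and 4 fell (BAMBI, TNFRSF19, SFRP5 and EPHB2). That is 5.19% in each direction, beside 3.84% of all genes higher and 2.62% lower. Each share rests on only 4 genes, and its difference from the background was not tested. The median was 0.12, where that of all genes was 0.01. TCF7L2, a TCF/LEF factor of epithelia, rose from 39.6, 41.4 and 43.6 CPM to 121.9, 109.9 and 125.6 CPM (log2 fold change 1.52, standard error 0.09, edgeR adjusted p = 3.8e-08). TCF7L1, a related factor that mostly represses, rose from 13.4 ± 0.413 to 27.2 ± 2.45 CPM (1.01, edgeR adjusted p = 5.8e-05), close to the fold threshold. For both factors every GO sample lay above every untreated one.

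The largest rise by GO was that of EPHB3, an ephrin receptor and target of the pathway in the gut, from 1.46 ± 0.103 to 6.77 ± 0.938 CPM (2.21, standard error 0.20, edgeR adjusted p = 2.7e-06). BAMBI, a decoy receptor of the TGF-β family and a β-catenin target, fell from 130 ± 5.53 to 43.9 ± 3.54 CPM (-1.56, standard error 0.10, edgeR adjusted p = 3.9e-08). TNFRSF19, a TNF receptor family member, fell from 28.1 ± 1.19 to 13.5 ± 2.51 CPM (-1.05, edgeR adjusted p = 6.6e-05), and FRZB, a secreted Frizzled-like antagonist, rose from 0.713 ± 0.0412 to 1.48 ± 0.177 CPM (1.05, edgeR adjusted p = 0.0033). FRZB lost its call when any single untreated replicate or GO replicate 2 was left out, and with library totals (0.94). TNFRSF19 lost its call without GO replicate 1 (-0.92) and with a GC content offset (-0.87). TCF7L1 lost its call without GO replicate 1 (0.95) or untreated replicate 1 (0.99). It also lost it with library totals (0.89), with no filter (0.99) and with a GC content offset (0.65). SFRP5 and EPHB2 had means under 1 CPM and are named after their values were seen.

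In the core of the cascade, CTNNB1, which encodes β-catenin, had a mean of 1005 ± 88.5 CPM with GO and 898 ± 12.1 CPM without treatment (0.16, edgeR adjusted p = 0.17). AXIN1 (-0.07, edgeR adjusted p = 0.75), GSK3B (0.19, edgeR adjusted p = 0.11) and LRP6 (0.00, edgeR adjusted p = 0.98) were not called. APC was at 14.5, 26.3 and 22.2 CPM after GO against 32.1 to 33.4 CPM in untreated cells (-0.64, standard error 0.17, edgeR adjusted p = 0.0071), short of the fold threshold.

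With GO-Rg3 against untreated cells edgeR called 0 of the 77 pathway genes, and DESeq2 also called 0. At an unadjusted p below 0.05 in edgeR, 9 were higher and 4 lower. The share of all genes below that p was not computed, so these 2 counts have no background beside them. With GO-Rg3 against GO, TNFRSF19 (1.10, edgeR adjusted p = 0.00011) and BAMBI (1.05, edgeR adjusted p = 3.8e-06) rose, while EPHB3 (-1.51, edgeR adjusted p = 1e-04) and TCF7L2 (-1.16, edgeR adjusted p = 9.3e-07) fell. These are 2.6% of the 77 in each direction, beside 0.702% of all genes higher and 2.07% lower. TNFRSF19 lost this call with a GC content offset (0.97) and without GO replicate 1 (0.98), and BAMBI without GO replicate 3 (0.99). The mean of TCF7L2 was then 53.3 ± 1.35 CPM and that of BAMBI 90.8 ± 4.27 CPM, each between its untreated and its GO level. Both comparisons use the same GO-Rg3 samples, and the second shares its GO samples with the GO against untreated comparison.

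**Figure D4:**
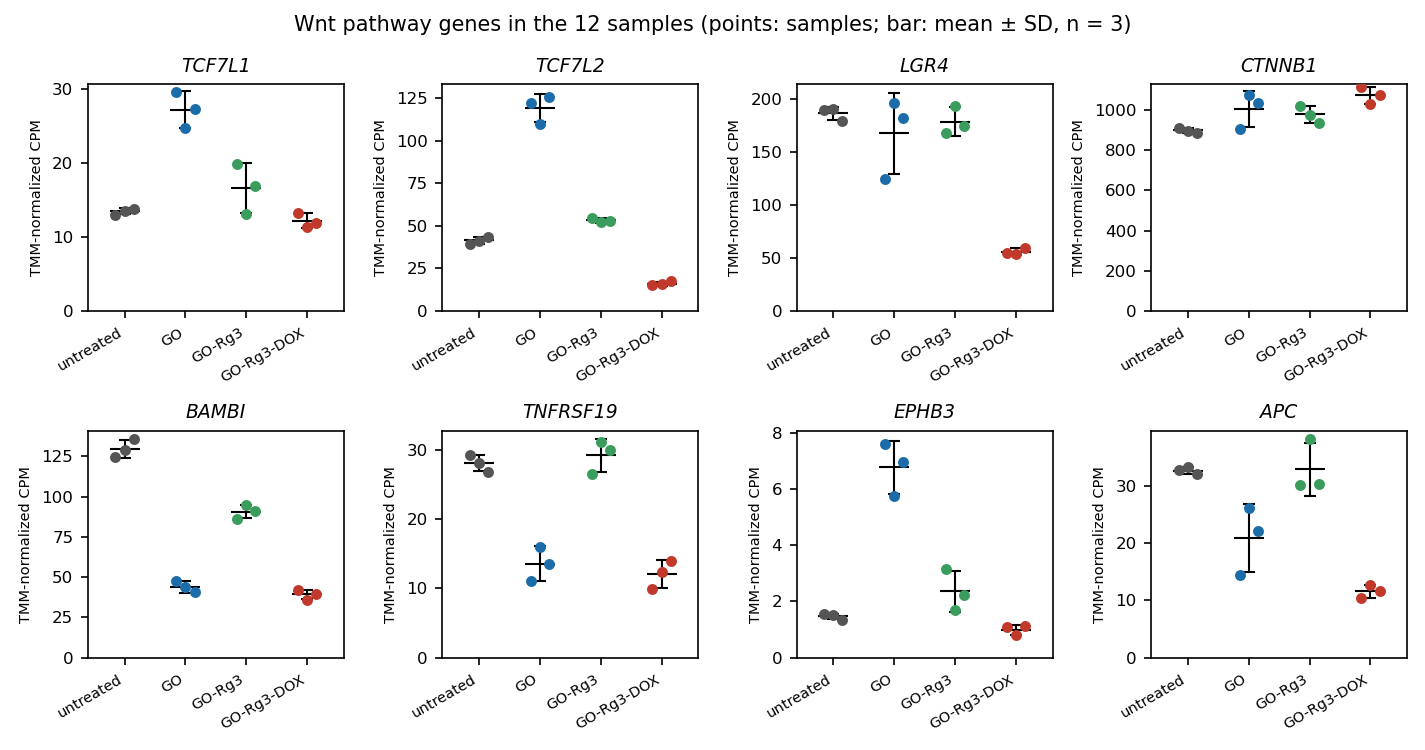
TMM-normalized CPM (linear axes from 0, a scale for each gene) of 8 pathway genes in the 12 samples. Points are samples, and bars give the mean ± SD (n = 3). TCF7L2 has means of 41.5 CPM without treatment, 119.2 CPM with GO and 16.1 CPM after GO-Rg3-DOX, and CTNNB1 stays between 887 and 1115 CPM in all samples.

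GO-Rg3-DOX changed 36 of the 77 pathway genes against untreated cells, 28 lower and 8 higher, with a median of -0.32 where that of all genes was -0.06. The lower genes are 36.4% of the list beside 18.2% of all genes, and the higher ones 10.4% beside 12.6%, so the count of higher genes does not exceed the background. Of 12 receptors and co-receptors 7 fell and 2 rose, and of 12 genes of β-catenin and its destruction complex 8 fell and 1 rose. Of 15 nuclear factors 5 fell and 2 rose, of 16 other target genes 6 fell and 1 rose, and of 8 secreted and surface antagonists 0 fell and 1 (FRZB) rose. Of the Frizzled receptors, which ZNRF3 and RNF43 act on, FZD1, FZD3, FZD4, FZD5 and FZD7 fell, FZD8 rose (1.35, edgeR adjusted p = 4.2e-05), and FZD2 (-1.11, edgeR adjusted p = 0.057) and FZD6 (0.31, edgeR adjusted p = 0.18) were not called. FZD4 fell from 32.99, 34.8 and 33.2 CPM to 4.70, 5.79 and 5.53 CPM (-2.65, standard error 0.11, edgeR adjusted p = 1.2e-10), FZD5 from 134 ± 6.48 to 27.75 ± 1.4996 CPM (-2.27, edgeR adjusted p = 2.4e-10) and FZD7 from 59.2 ± 1.86 to 16.5 ± 0.329 CPM (-1.84, edgeR adjusted p = 2.7e-10).

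The destruction complex genes APC (-1.50, edgeR adjusted p = 2.2e-06) and AXIN1 (-1.40, edgeR adjusted p = 3.1e-06) fell. So did SIAH1, listed in the same role, a ubiquitin ligase of a second route of β-catenin removal (-1.90, edgeR adjusted p = 4.7e-06). GSK3B was at the fold threshold (-1.004, edgeR adjusted p = 3.3e-07) and fell below it in size under other settings (-0.94 with DESeq2, -0.70 with a GC content offset). LRP6, which DKK1 binds, fell from 88.6 ± 2.83 to 38.9 ± 0.453 CPM (-1.19, edgeR adjusted p = 7.5e-07). With a GC content offset its value was -0.83, short of the fold threshold. CTNNB1 was at 1074 ± 41.6 CPM (0.26, edgeR adjusted p = 0.021), not called, and at -0.16 with library totals.

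TCF7L2 fell from 41.5 ± 2.05 to 16.1 ± 1.17 CPM (-1.36, edgeR adjusted p = 1.1e-08), so that its level after GO-Rg3-DOX was below and that after GO above the untreated one. TBX3, a T-box repressor and Wnt target in the liver, fell from 10.4 ± 0.530 to 2.46 ± 0.123 CPM (-2.07, edgeR adjusted p = 1.5e-08). TLE2, a Groucho co-repressor, rose from 7.93 ± 0.418 to 28.5 ± 2.65 CPM (1.84, edgeR adjusted p = 1.9e-07).

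Against GO-Rg3 30 of the 77 fell and 10 rose, which is 39% beside 18.1% of all genes and 13% beside 12.6%. The median was -0.45. Among genes with a mean of at least 1 CPM, the largest changes were those of FZD4 (-2.79, edgeR adjusted p = 1e-10), FZD5 (-2.66, edgeR adjusted p = 1e-10), FZD7 (-1.88, edgeR adjusted p = 2.2e-10), FBXW11, which recognises phosphorylated β-catenin (-1.87, edgeR adjusted p = 8.3e-10), SIAH1 (-1.81, edgeR adjusted p = 8e-06) and TLE1 (-1.76, edgeR adjusted p = 3.6e-09). SFRP5, a secreted Frizzled-like antagonist under that mean and named after its values were seen, rose from 0.237 to 1.31 CPM (2.43, edgeR adjusted p = 1e-05). Both comparisons use the same GO-Rg3-DOX samples.

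**Figure D5:**
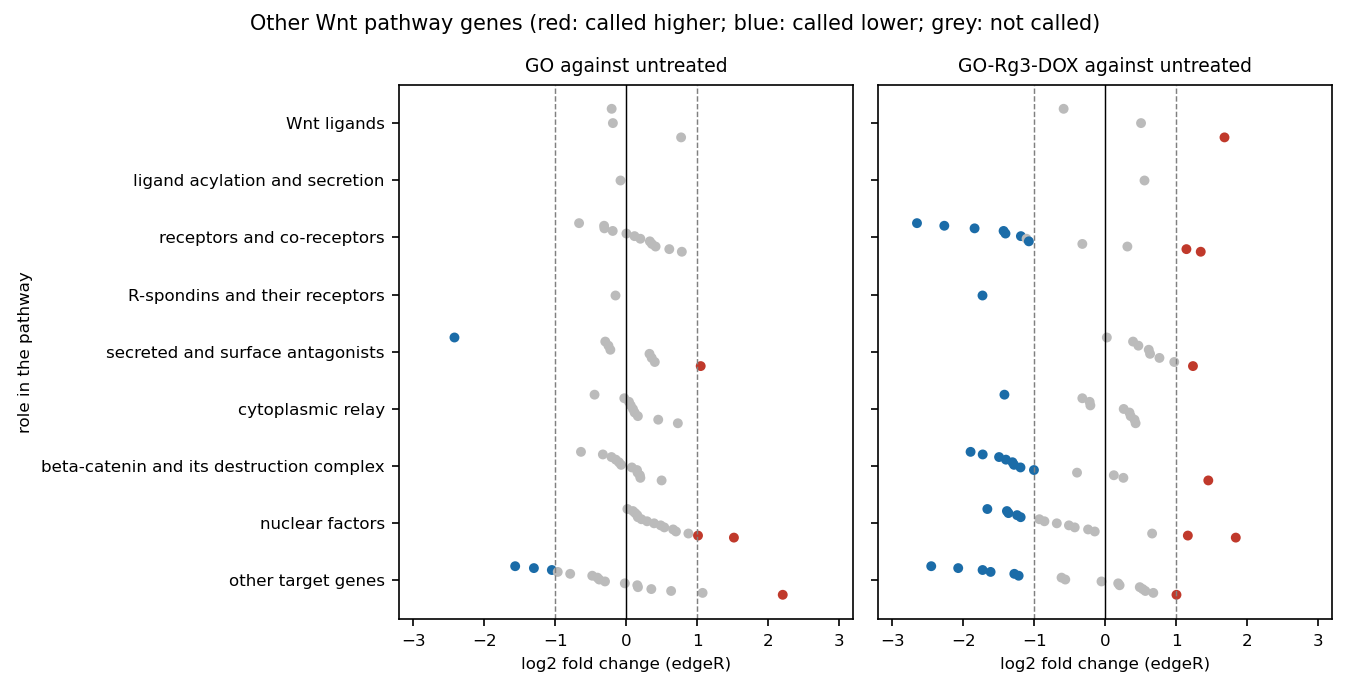
Log2 fold change by edgeR (x axis, linear) of the 77 tested pathway genes by role (y axis), after GO (left) and after GO-Rg3-DOX (right) against untreated cells. Points are genes, red for called higher, blue for called lower and grey for not called, and dashed lines mark the fold threshold of 1. After GO 4 genes were called in each direction, and after GO-Rg3-DOX 28 lower and 8 higher, with 8 of 12 genes in the role of β-catenin and its destruction complex lower.

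Fold changes also moved with GC content, with a Spearman rho over 16622 genes of 0.43 for GO, 0.20 for GO-Rg3 and 0.36 for GO-Rg3-DOX against untreated cells. The longest transcript of DKK1 holds 43.7% GC and that of LGR5 43.8%, under the median of 47.8%, whereas those of SP5 (66.3%), ZNRF3 (53.5%) and RNF43 (50.7%) lie above it. With an offset for GC content the log2 fold change of DKK1 after GO was -4.66. That of LGR5 with GO-Rg3 against GO was 0.93, below the fold threshold, and SP5 with GO-Rg3-DOX was at -1.95 against untreated cells and -1.69 against GO-Rg3, both still called. The part of GC content and of the mitochondrial share in these results was not tested otherwise. Without the 2 libraries of highest mitochondrial share (GO replicate 1 and GO-Rg3-DOX replicate 1), a choice made after the data were seen, DKK1, ZNRF3 and RNF43 kept their calls with GO-Rg3-DOX while SP5 lost its own (-1.09, edgeR adjusted p = 0.014, against untreated cells).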

How the data were processed

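The 10 genes and the pathway list were chosen with earlier results of these data known. The authors mapped paired reads of stranded poly(A) libraries to GRCh37 with the NGI-RNAseq pipeline and deposited raw counts per gene from featureCounts, while aligner version, annotation release and strand setting are not given in the sources used here. All 12 samples, 3 per group, entered one edgeR 4.0.16 quasi-likelihood fit (R 4.3.3) with TMM scaling, treatment as the only term and Benjamini-Hochberg adjustment over 17092 genes that reached 10 counts in 3 or more samples. Whether samples came from separate cultures is not stated, so p-values measure the spread between these samples, which may be technical. A gene was called at an adjusted p below 0.01 if its log2 fold change was also above 1 in size. On simulated counts for GO-Rg3-DOX against untreated, 200 of 16275 genes were given a log2 change of 2, up or down. Of these 199 were recovered, with 0 false calls. In the data 2159 genes were called higher and 3103 lower in this comparison, far more than were simulated. The simulation therefore checks the code and cannot give the error rate of these calls.

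Beside the 10 genes, the rule for naming took CTNNB1, APC, AXIN1, GSK3B, LRP6, LGR4 and TCF7L2, the 6 called pathway genes of largest absolute fold change per comparison (mean of at least 1 CPM, groups not overlapping) and the 5 genes most correlated with DKK1 (log2 CPM, prior count 2). After the data were seen, the first 7 were given only for GO and GO-Rg3-DOX against untreated cells. Alternatives were RLE scaling or library totals, other count filters, DESeq2 1.42.0, a replicate block, a GC content offset (loess span 0.5), the 6 compared samples alone, leaving out each sample, and adjusted p below 0.05 with no fold threshold. Gene positions are GRCh37, and promoter windows are RefSeq on GRCh38.p14.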

Additional observations from a re-analysis of the deposited data

How the results depend on the processing

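Of 1271 fold changes recomputed, 1179 kept their direction and side of the threshold, or for values with no test stayed within 1 SD. DKK1 with GO-Rg3-DOX, RNF43 and ZNRF3 kept their calls throughout. The 2 calls of members with GO-Rg3 against GO are a description with no test. They became 1 with a GC content offset, with that offset and a replicate block, and without the 2 libraries of highest mitochondrial share. They were 1 to 2 when leaving out 1 replicate. With GO-Rg3 against untreated cells leaving out 1 replicate gave 0 to 1 call. Pathway calls after GO went from 8 to 5 without those 2 libraries and were 5 to 8 when leaving out 1 replicate. At an adjusted p below 0.05 with no fold threshold they were 34 for GO, 3 for GO-Rg3, 58 for GO-Rg3-DOX, 20 for GO-Rg3 against GO and 61 for GO-Rg3-DOX against GO-Rg3, and with no filter GO-Rg3 gave 1. The share of all genes at an adjusted p below 0.05 with no fold threshold was not computed, so those counts have no background beside them. The cause of these moves was not tested.

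Reversals were of small values. With library totals LGR5 was at -0.35 and -0.051, AXIN2 at -0.28 and -0.25 and TCF7 at -0.16 and -0.26 with GO-Rg3-DOX against untreated cells and GO-Rg3 in turn, CTNNB1 at -0.16 with GO-Rg3-DOX and LRP6 at -0.10 with GO. With no filter LGR5 with GO-Rg3-DOX was at -0.019 and LRP6 with GO at -0.021. With a GC content offset AXIN2 with GO-Rg3-DOX was at -0.041, TCF7 against GO-Rg3 at -0.0333 and LGR4 with GO at 0.042, and with a replicate block as well they were at -0.052, -0.0332 and 0.036. In the 6 samples compared AXIN2 and SP5 with GO-Rg3 were at 0.017 and 0.0050. LGR4 with GO was at 0.025 without the 2 libraries of highest mitochondrial share. Leaving out 1 replicate gave, with GO-Rg3-DOX, -0.017 to 0.15 for LGR5, with GO-Rg3 -0.17 to 0.030 for AXIN2, -0.050 to 0.15 for TCF7 and -0.33 to 0.13 for SP5, and with GO -0.082 to 0.13 for LRP6 and -0.28 to 0.024 for LGR4.

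Replicate numbers were not taken to pair the samples, since no source used here says what a number marks and not every same-numbered pair deviated together (mean r 0.091, -0.024 to 0.253 over 18 pairs, against a mean of -0.045 for the other pairs). That 10 of the 12 samples correlated best, on average, with their own number is a hint of pairing from the data, not from the design. A replicate block changed no call of a member, and the block turned LRP6 with GO to -0.0069. Calls over all genes with GO-Rg3 against untreated cells went from 2 higher and 8 lower to 3 and 21 with the block. SP5, NOTUM, NKD1, LEF1 and AXIN2 had under 50 counts in at least 1 library, and the part of depth in their values was not tested.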

Other observations

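The Frizzled receptors FZD4 and FZD7 also differed after GO without reaching the fold threshold, and FZD5 passed neither the fold nor the p threshold. These values were picked after they were seen. FZD4 was at 58.1 ± 2.37 CPM after GO against 33.7 ± 0.972 CPM in untreated cells (SD, n = 3; log2 fold change 0.79, standard error 0.10, edgeR adjusted p = 4.2e-05). FZD7 was at 90.3 ± 3.38 against 59.2 ± 1.86 CPM (0.61, edgeR adjusted p = 6.4e-05) and FZD5 at 108 ± 12.5 against 134 ± 6.48 CPM (-0.31, edgeR adjusted p = 0.022). None of the 3 overlapped between these groups, and they are among 44 of the 77 tested pathway genes for which this held. The share of all genes for which it held was not computed, so this count is not read as a result about the pathway. With GO-Rg3-DOX all 3 fell.

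Genes of related function also went opposite ways with GO-Rg3-DOX. The co-receptor LRP5 rose (1.15, standard error 0.20, edgeR adjusted p = 9.8e-05) where LRP6 fell, APC2 rose (1.46, edgeR adjusted p = 5.4e-05) where APC fell, and FZD8 rose (1.35, edgeR adjusted p = 4.2e-05) where FZD4, FZD5 and FZD7 fell. Among the antagonists DKK3, a divergent member of the DKK family, was higher by 0.77 (standard error 0.09, edgeR adjusted p = 3.6e-06), short of the fold threshold, where DKK1 fell. These genes were picked after their values were seen, and the differences between the members of each pair were not tested. The rises of LRP5, APC2, FZD8 and DKK3 were not examined one by one under other settings. With library totals in place of TMM the median of all genes in this comparison went from -0.06 to -0.47, so the size of these rises depends on the scaling.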
